A study of Mus musculus with 15 samples.

Results

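Mast cells and basophils are granulocytes that carry IgE on a receptor at their surface and release histamine, proteases and lipid mediators when antigen crosslinks it. The receptor is built from an alpha chain that binds IgE (Fcer1a), a beta chain that amplifies the signal (Ms4a2) and a gamma chain shared with other Fc receptors (Fcer1g). Both cell types also respond to interleukin 33 through the ST2 receptor (Il1rl1), make histamine with histidine decarboxylase (Hdc) and store proteases in granules. Carboxypeptidase A3 (Cpa3) is found in both, chymase (Cma1) is typical of mast cells, and Prss34 (mMCP-11) and Mcpt8 (mMCP-8) are typical of basophils. The transcription factor GATA2 is needed by both, and GATA1 and MITF act in mast cells.

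These 8 genes, Ms4a2, Fcer1a, Il1rl1, Hdc, Cpa3, Cma1, Prss34 and Mcpt8, were taken by symbol from the 55359 genes of the expression tables. They were chosen by their expected counts with the difference between the wild-type and the heterozygous line in view, so their values in that comparison are a description and carry no test. The expression tables held 15 libraries in 5 groups of 3. All cells were mouse fetal liver progenitors, labelled as hematopoietic progenitors, that were immortalized with Hoxb8, grown in medium with β-estradiol, incubated with a retrovirus for 2 days and sorted for GFP. The WT empty group was the line with both copies of Ddx41 (hi-Ddx41+/+) and a retrovirus without insert. The other 4 groups were the heterozygous knockout line (hi-Ddx41+/-) with the empty retrovirus (Het empty) or with a retrovirus for wild-type DDX41 (Het DDX41), G173R DDX41 (Het G173R) or R525H DDX41 (Het R525H), the latter 2 being substitutions found in people with myeloid malignancy. The labels name no separate lines, animals or cultures within a genotype, so the genotype and the line cannot be told apart, and p-values measure the spread between libraries, which may be technical.

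Library totals lay between 22104066 and 49145873 expected counts. Ddx41 stood at 55.6 to 63.4 CPM (counts divided by the scaled library total) in WT empty and at 28.7 to 33.0 CPM in Het empty, so these libraries matched their labelled genotype. It was 29.5 to 35.3 CPM in Het DDX41, 27.8 to 36.9 in Het G173R and 29.1 to 34.6 in Het R525H, all overlapping Het empty, so these levels do not show that a vector was expressed, and its expression was not tested. The names of 12 tables carried the code of another vector than the sample title, and groups follow the titles. The 3 WT empty tables carried the code of their titles, so the contrast of the 12 heterozygous libraries as a whole with WT empty does not depend on that choice. Which libraries form Het empty or another heterozygous group does, and with it every value of a single group and every comparison between vectors. Kit and Cd34, markers of progenitors, averaged 491 and 1560 CPM over all libraries, whereas the mast cell tryptase Tpsb2, the proteases Mcpt1 and Mcpt4 and the mast cell receptors Mrgprb1 and Mrgprb2 had 0 counts in all 15. The genes at 0 come from lists of 18 granule genes, of which 4 had 0 counts in all libraries, and 26 surface receptor genes, of which 2 did. Cpa3 and Cma1 had counts. Kit and Cd34 are also in that receptor list, so their levels do not set progenitors apart from mast cells.

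The start regions of the genes are shown first because GATA factors recognise short motifs there. The 250 bases before each annotated start were searched on both strands for AGATAA or AGATAG and for TGATAA or TGATAG, called GATA matches here. All 8 genes had a RefSeq promoter on GRCm38.p6, and Il1rl1 had 2. At least 1 match was found for 7 of the 8 genes, and in 26.5% of 32851 mouse promoters of the same length. The first is a count of genes and the second a share of promoters, and enrichment was not tested. Ms4a2 had 3 matches, starting 224, 37 and 11 bases before the start, and 1.35% of promoters had 3 or more. The first Il1rl1 promoter had 5, starting 217, 141, 110, 80 and 54 bases before the start, and 0.0426% of promoters had 5 or more. Cpa3, Prss34, Cma1, Fcer1a, Hdc and the second Il1rl1 promoter had 1 match each, and Mcpt8 had none in its window. The sequences below run 5′ to 3′ up to the base before the start, on the strand of the gene, with GATA matches of either strand in capitals. They are chr19:11623720-11623839 (minus strand) for Ms4a2, chr1:40429320-40429569 (plus) for Il1rl1, chr3:20242182-20242301 (minus) for Cpa3, chr17:25298274-25298393 (plus) for Prss34, chr14:55944676-55944795 (minus) for Cma1 and chr14:56085198-56085317 (minus) for Mcpt8.
Ms4a2: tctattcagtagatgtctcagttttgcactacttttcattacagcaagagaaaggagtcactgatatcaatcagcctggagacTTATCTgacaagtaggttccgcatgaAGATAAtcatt
Il1rl1: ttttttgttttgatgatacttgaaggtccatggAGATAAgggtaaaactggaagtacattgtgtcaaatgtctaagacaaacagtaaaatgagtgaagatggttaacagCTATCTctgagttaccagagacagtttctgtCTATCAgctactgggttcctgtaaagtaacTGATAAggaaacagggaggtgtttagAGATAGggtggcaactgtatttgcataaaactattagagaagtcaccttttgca
Cpa3: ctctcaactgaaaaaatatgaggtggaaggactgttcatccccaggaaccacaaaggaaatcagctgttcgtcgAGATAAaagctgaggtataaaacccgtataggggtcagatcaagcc
Prss34: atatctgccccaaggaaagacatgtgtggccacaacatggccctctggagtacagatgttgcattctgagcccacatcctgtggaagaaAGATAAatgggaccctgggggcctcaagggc
Cma1: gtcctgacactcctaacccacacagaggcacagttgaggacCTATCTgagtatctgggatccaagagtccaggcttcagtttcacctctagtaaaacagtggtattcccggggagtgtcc
Mcpt8: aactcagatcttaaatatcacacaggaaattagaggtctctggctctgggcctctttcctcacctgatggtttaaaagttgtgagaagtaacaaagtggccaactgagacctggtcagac
In the 120 bases shown, the Ms4a2 window holds 2 of its 3 matches, the last of them 11 bases from the start, and the Cpa3 and Prss34 matches lie 46 and 31 bases from it. The E-box letters CATGTG or CACGTG, a motif bound by MITF, were in the 250-base windows of Prss34 and Fcer1a (17.6% of promoters), and the RUNX letters TGTGGT in those of Cpa3, Fcer1a, Mcpt8 and the second Il1rl1 promoter (14.0% of promoters). A match describes letters in a window and is not evidence of binding.

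Of these genes, 5 were lower in every heterozygous group than in WT empty, 2 were not, and Fcer1a had no counts. Ms4a2, Il1rl1, Cpa3, Cma1 and Prss34 stood between 5.39 and 36.2 percent of the WT empty mean in the 4 heterozygous groups. Hdc stayed between 86.6 and 107 percent and Mcpt8 between 103 and 114 percent. All 3 heterozygous libraries lay below all 3 WT empty libraries for the same 5 of 7 measured genes in each of the 4 groups. The share of all 14548 genes tested that did so was 8.82% in Het empty, 10.5% in Het DDX41, 7.86% in Het G173R and 11.8% in Het R525H. The 4 comparisons share their WT empty libraries, and the genes were chosen for the difference, so nothing is read from the count. In bulk RNA, fewer cells of a type and less RNA per cell cannot be told apart.

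The beta chain gene Ms4a2 showed a wide spread in the wild-type line. Its level was 32.7, 36.1 and 14.0 CPM in WT empty libraries 1, 2 and 3, and 4.22, 4.30 and 5.02 CPM in Het empty. It was 3.08, 3.42 and 2.85 CPM in Het DDX41, 4.47, 3.59 and 2.21 in Het G173R, and 3.15, 3.05 and 2.68 in Het R525H. The lowest wild-type library still lay above all 12 heterozygous libraries. WT empty averaged 27.6 ± 11.9 CPM (SD, n = 3) and Het empty 4.51 ± 0.443, a log2 difference of -2.61 (SE 0.308). The differences of Het DDX41, Het G173R and Het R525H from WT empty were -3.14, -3.02 and -3.22. By library number, Het empty lay below WT empty by 2.95, 3.07 and 1.48 log2 units for numbers 1, 2 and 3.

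The alpha chain gene Fcer1a had 0 counts in all 15 libraries. With 3 counts as the limit that a count of 0 allows, its level was under 0.061 to 0.136 CPM, depending on library depth, a limit of counting error only. The shared gamma chain gene Fcer1g was present at 91.5 ± 7.96 CPM in WT empty and 83.1 ± 6.39 in Het empty (adjusted p = 0.648, edgeR quasi-likelihood test with Benjamini-Hochberg adjustment over all genes tested, used for every adjusted p here). Of the 3 chain genes, the beta chain thus did not overlap between the lines, the gamma chain did not pass the test and the alpha chain was not detectable at this depth.

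The IL-33 receptor gene Il1rl1 stood at 26.7, 34.4 and 20.9 CPM in WT empty libraries 1, 2 and 3 and at 5.44, 5.28 and 9.33 in Het empty. It read 4.54, 3.58 and 11 CPM in Het DDX41, 4.94, 3.86 and 8.66 in Het G173R, and 3.03, 2.75 and 4.63 in Het R525H. Library 3 was the lowest of its group in WT empty and the highest in all 4 heterozygous groups. Means were 27.4 ± 6.73 CPM in WT empty and 6.68 ± 2.3 in Het empty, a log2 difference of -2.03 (SE 0.416), and 3.47 ± 1.01 in Het R525H, a difference of -2.99 (SE 0.438). Within numbers, Het empty lay below WT empty by 2.3, 2.7 and 1.17 log2 units. The difference of Het DDX41 from WT empty was -2.11, and -2.77 without Het DDX41 library 3. Il1rap, which encodes the co-receptor of ST2, rose in Het empty from 3.72 ± 0.351 to 7.83 ± 1.02 CPM (log2 1.07, adjusted p = 0.000258, edgeR), the opposite direction to Il1rl1.

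Hdc, the histamine-forming enzyme, was the most abundant of the 8 per transcript length. Its mean was 59.3 TPM (a level corrected for transcript length) in WT empty, followed by Cpa3 at 37.9, Ms4a2 at 17.6, Il1rl1 at 9.04, Prss34 at 6.22, Mcpt8 at 6.12 and Cma1 at 2.54 TPM. In Het empty the order became Hdc at 46.3, Cpa3 at 11.4, Mcpt8 at 6.14, Ms4a2 at 2.53, Il1rl1 at 2.02, Prss34 at 1.59 and Cma1 at 0.337 TPM. Prss34 and Mcpt8 differed by less than their spread in WT empty (SD 1.09 and 1.17 TPM), and in Het empty Mcpt8 stood above Ms4a2, Il1rl1 and Prss34. The Hdc CPM values were 111, 139 and 114 in WT empty, 112, 123 and 88.1 in Het empty, 114, 111 and 90.3 in Het DDX41, 116, 115 and 90.8 in Het G173R, and 142, 143 and 103 in Het R525H. Every heterozygous group overlapped WT empty, and library 3 was the lowest of its group in all 4 of them. The log2 difference of Het empty from WT empty was -0.17 (95% interval -0.51 to 0.17).

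The granule protease genes split in the same way. Cpa3 stood at 46.9, 58.7 and 33.7 CPM in WT empty and at 15.2, 14.9 and 17.3 in Het empty, with 11.8, 12.9 and 19.1 in Het DDX41, 14.1, 14.6 and 21.7 in Het G173R, and 14.7, 11.6 and 15 in Het R525H. The means were 46.4 ± 12.5 CPM in WT empty and 15.8 ± 1.3 in Het empty, a log2 difference of -1.55 (SE 0.23). The lowest wild-type library, number 3, was above the highest heterozygous one, Het G173R library 3. Prss34 read 6.24, 7.64 and 4.54 CPM in WT empty and 1.41, 1.67 and 2.33 in Het empty, a log2 difference of -1.77 (SE 0.266). Over the other 9 heterozygous libraries it ranged from 1.14 to 1.90 CPM, and no heterozygous library reached the lowest wild-type one.

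Chymase, Cma1, was the lowest expressed of the 7 and was near the counting limit in 1 group. It stood at 1.91, 2.71 and 1.77 CPM in WT empty, 0.384, 0.231 and 0.341 in Het empty, 0.25, 0.307 and 0.435 in Het DDX41, and 0.327, 0.392 and 0.284 in Het G173R. In Het R525H it was 0.0583, 0.15 and 0.136 CPM, which are 2, 6 and 3 counts, against 12, 8 and 11 counts in Het empty and 68, 98 and 68 in WT empty. All Het R525H libraries lay below all other libraries. The log2 difference from WT empty was -2.73 (SE 0.362) in Het empty and -4.18 (SE 0.409) in Het R525H. Mcpt8, a protease of the same chromosome 14 cluster, did not show the difference. It read 3.23, 4.99 and 2.91 CPM in WT empty and 4.51, 4.99 and 3.19 in Het empty, a log2 difference of 0.19 (95% interval -0.55 to 0.93). The heterozygous groups with DDX41 vectors ranged from 2.36 to 5.95 CPM for Mcpt8 and overlapped WT empty.

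**Figure D1:**
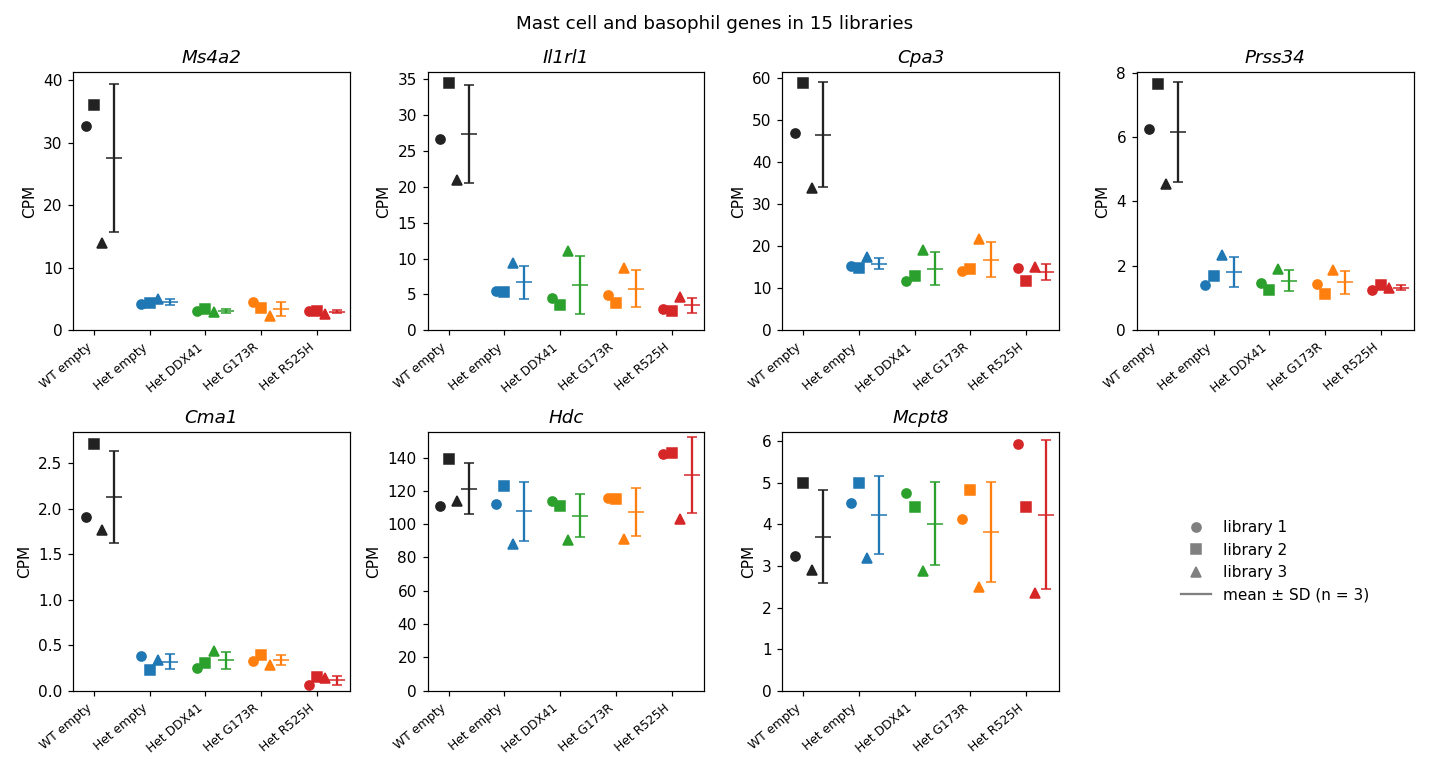
CPM (vertical axes, linear from 0) of the 7 genes with counts, by group; symbols are libraries 1 to 3 and bars are mean ± SD of 3 libraries. Ms4a2, Il1rl1, Cpa3, Prss34 and Cma1 were lower in all 12 heterozygous libraries than in any WT empty library, and Hdc and Mcpt8 were not.

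**Figure D2:**
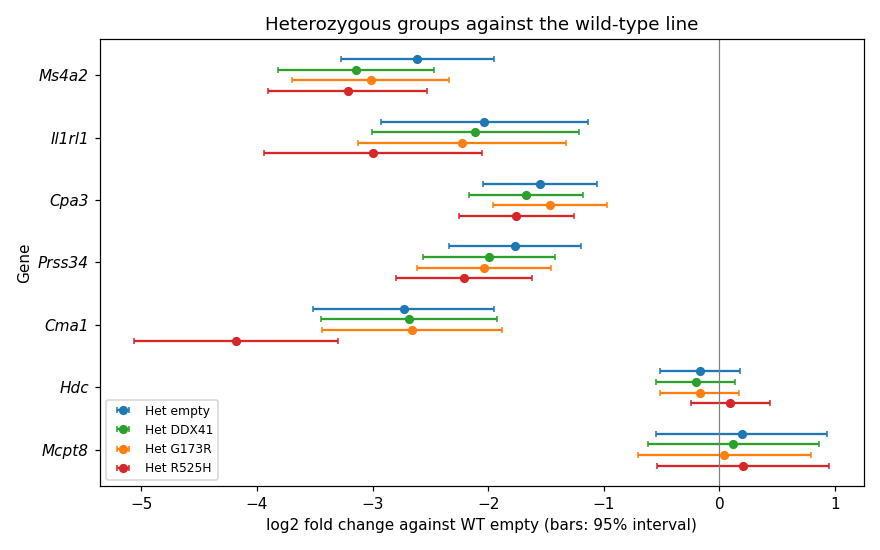
Log2 fold change against WT empty (horizontal axis) of each gene in the 4 heterozygous groups, with 95% intervals. The 5 genes that were lower lay between -1.47 and -4.18, and the intervals of Hdc and Mcpt8 held 0 in all 4 groups.

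The 4 heterozygous groups ask whether a DDX41 vector changed these genes within the same line. No gene of the 7 passed the test in any of the 6 comparisons between these groups, nor in the F test for any difference among them (0 of 7 by edgeR and by DESeq2). The share of all genes called was 0% for Het DDX41 and for Het G173R against Het empty, 0.0137% for Het R525H against Het empty, 0% for Het G173R and for Het R525H against Het DDX41, and 0.0825% for Het R525H against Het G173R. It was 0.0137% in the F test. At an unadjusted p under 0.05, Cma1 passed in the 3 comparisons with Het R525H and in the F test, and Il1rl1 in Het R525H against Het empty. In these, 4.98%, 3.99% and 6.39% of all genes did so against Het empty, Het DDX41 and Het G173R, and 3.22% in the F test. None of the 7 did in the other 3 comparisons, where 1.75% (Het DDX41 against Het empty), 0.605% (Het G173R against Het empty) and 1.54% (Het G173R against Het DDX41) of all genes did. These counts are from the fit with group alone. With the library number as a block (edgeR), Ms4a2 also had an unadjusted p under 0.05 in Het DDX41 (0.0424) and Het R525H (0.0263) against Het empty. Hdc had one in the comparisons with Het R525H (0.00466, 0.00199 and 0.00485) and the F test (0.00599). Il1rl1 had one in those comparisons (0.0114, 0.0256 and 0.0436). The share of all genes is not given for that fit, so nothing is read from these. The genes were chosen with the values of all 15 libraries known, so these tests are not independent of the choice.

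Cma1 had the largest differences between vectors. In Het R525H it lay below Het empty by a log2 difference of -1.45 (95% interval -2.37 to -0.52, adjusted p = 0.619, edgeR), below Het DDX41 by -1.49 (adjusted p = 0.708) and below Het G173R by -1.52 (-2.44 to -0.59, adjusted p = 0.353). All 3 Het R525H libraries lay below all 3 of each other group, which held for 5.22%, 5.51% and 5.28% of all genes against Het empty, Het DDX41 and Het G173R. Against Het empty this also held for Ms4a2, Il1rl1 and Prss34, 4 of 7 in all. Il1rl1 differed by -0.96 (95% interval -1.88 to -0.04, adjusted p = 0.998), Ms4a2 by -0.60 (-1.27 to 0.06) and Prss34 by -0.44 (-1.03 to 0.14). With the wild-type DDX41 vector, Ms4a2 differed from Het empty by -0.53 (-1.18 to 0.12), all 3 libraries below those of Het empty as for 3.33% of all genes, Il1rl1 by -0.08 (-0.96 to 0.80), Cpa3 by -0.12 (-0.61 to 0.37) and Cma1 by 0.05 (-0.76 to 0.85), intervals that hold changes of either sign. The Il1rl1 value rests on 1 library: without Het DDX41 library 3 it was -0.74, and Het R525H against Het DDX41 moved from -0.88 to -0.22. With the library number as a block, the smallest adjusted p for Cma1 was 0.153, for Hdc 0.135 and for Il1rl1 0.261, and none passed. Hdc went the other way and was higher in Het R525H. In the block fit it differed by 0.26 from Het empty (adjusted p = 0.188, edgeR), 0.29 from Het DDX41 (0.14) and 0.26 from Het G173R (0.135).

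Library number was not used to choose the genes, and 4 of 7 differed with it. In a model with group and number, libraries numbered 3 had less Mcpt8 (log2 difference from the mean of numbers 1 and 2 of -0.73, SE 0.133, adjusted p = 0.000573, edgeR), less Hdc (-0.33, SE 0.053, adjusted p = 0.000195), less Ms4a2 (-0.49, SE 0.175, adjusted p = 0.033) and more Il1rl1 (0.68, SE 0.203, adjusted p = 0.014). Among all genes 46.1% were called, so 4 of 7 is near the background. Mcpt8 was lowest in library 3 in 5 of 5 groups and Hdc in 4 of 5. The labels do not say what a number marks. The Ms4a2 call was lost without WT empty library 1, 2 or 3 (adjusted p = 0.0622, 0.0617 and 0.217), without Het G173R library 1 or 3 (0.0632 and 0.11) and without Het DDX41 library 3 (0.0547). That for Il1rl1 was lost without library 3 of Het DDX41 (adjusted p = 0.0766) or of Het G173R (0.0584). Without WT empty library 3, Cpa3 and Prss34 were higher in libraries numbered 3 (0.42 each, adjusted p = 0.00255 and 0.04).

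The place of library 3 within its group differed by line for some of the genes. In WT empty, library 3 was the lowest for 6 of 7 genes, all but Hdc, with a ratio to the mean of libraries 1 and 2 from 0.408 (Ms4a2) to 0.763 (Cma1). Among the heterozygous groups it was the highest in 4 of 4 for Il1rl1 and Cpa3 and in 3 of 4 for Prss34. The log2 shift in WT empty minus that in the heterozygous groups was -1.55 (SE 0.263) for Il1rl1, -1.06 (SE 0.206) for Cpa3, -1.03 (SE 0.319) for Prss34 and -1.07 (SE 0.272) for Ms4a2. No p-value is given or read for these values, since the pattern was seen first in these data and the shift in the wild-type line rests on 1 library.

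**Figure D3:**
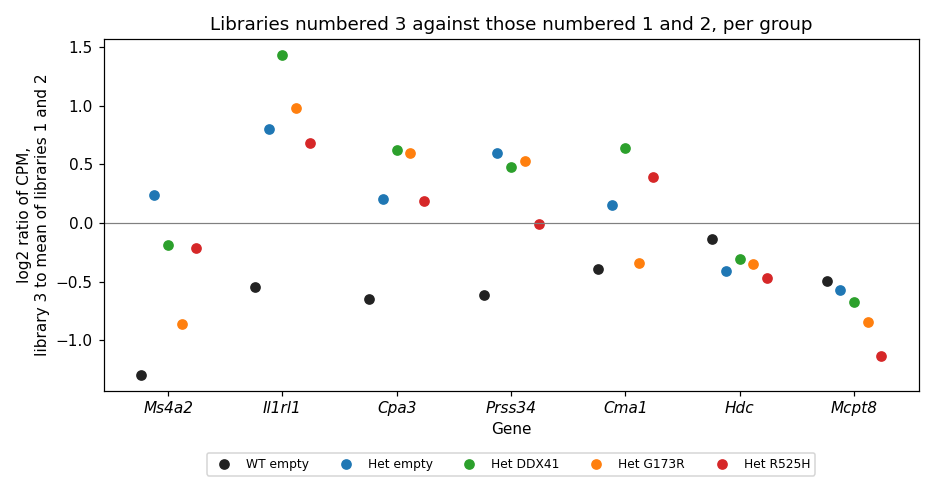
Log2 ratio of CPM in library 3 to the mean of libraries 1 and 2 (vertical axis) for each gene, 1 point per group. All 7 genes lay below 0 in WT empty. Il1rl1 and Cpa3 lay above 0 in all 4 heterozygous groups, and Mcpt8 lay below 0 in all 5 groups.

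Of the other genes of mast cells and basophils, most were not called between the lines. Over 5 lists (granule contents, surface receptors, IgE receptor signalling, lipid mediators and cytokines, transcription factors) 105 of 125 genes were tested in Het empty against WT empty, and 3 rose and 9 fell. The share of all genes called was 1.90% higher and 1.75% lower. Same-numbered libraries of these groups deviated together. With the number as a block 4 of the 105 rose and 21 fell, against 661 higher and 691 lower of all 14548 genes. In both fits the share of list genes that fell was above that of all genes. The lists were chosen with earlier results of these data known, so nothing is read from that share. The lists' median log2 differences lay between -0.25 (surface receptors) and -0.001 (transcription factors), against -0.001 for all genes.

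Among granule genes 2 of 9 tested fell. Slc18a2, the vesicular monoamine transporter that loads histamine into granules, fell from 34.7 ± 4.48 to 22.8 ± 2.7 CPM (log2 -0.61, adjusted p = 0.0167, edgeR). Ndst2, which sulfates the heparin that holds mast cell proteases, fell from 25.4 ± 3.51 to 18.0 ± 0.294 CPM (log2 -0.50, adjusted p = 0.00958). The most abundant granule gene, Srgn, which encodes the granule proteoglycan core serglycin, was at 859 ± 52.8 and 977 ± 23.1 CPM (adjusted p = 0.209), and the lysosomal protease gene Ctsd at 459 ± 70.7 and 452 ± 27.3. Without 1 library at a time, Slc18a2 lost its call without WT empty library 1 or 2 (adjusted p = 0.106 and 0.0563) and Het empty library 2 or 3 (0.1 and 0.0788), and Ndst2 without WT empty library 1 or 2 (0.0504 and 0.0562).

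Among surface receptor genes 2 of 22 tested fell (5 with the replicate block). Siglecf, an inhibitory lectin best known from eosinophils, fell from 104 ± 7.27 to 52.5 ± 3.26 CPM (log2 -0.98, adjusted p = 5.04e-05, edgeR). Cd33, another sialic acid binding lectin, fell from 465 ± 37.2 to 352 ± 42.5 CPM (log2 -0.40, adjusted p = 0.0234). Kit, the stem cell factor receptor on which mast cells depend, stood at 553 ± 36.6 and 490 ± 25.8 CPM (adjusted p = 0.216), and Cd34 at 1610 ± 125 and 1560 ± 68.3. The Cd33 call was lost without WT empty library 1 or 3 (adjusted p = 0.127 and 0.0926), without Het empty library 2 or 3 (0.151 and 0.111) and with libraries 1 and 2 alone (0.0855), while Siglecf kept its call in all of these.

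Downstream of the IgE receptor, 2 of 28 genes fell and 1 rose (6 and 1 with the replicate block). The adaptor gene Lcp2 (SLP-76) fell from 48.1 ± 6.17 to 25.9 ± 5.42 CPM (log2 -0.90, adjusted p = 0.03, edgeR). The protein kinase C gene Prkcb rose from 0.0715 ± 0.0621 to 1.87 ± 1.37 CPM (adjusted p = 0.0448). Its wild-type libraries ranged from 0 to 0.111 CPM, so its fold is not given. Its call was lost without any 1 of WT empty libraries 1, 2 and 3 (adjusted p = 0.18, 0.13 and 0.13) or Het empty libraries 1 and 2 (0.136 and 0.119). The Lcp2 call was lost without WT empty library 1, 2 or 3 (0.0504, 0.0869 and 0.125) or Het empty library 1 or 2 (0.135 and 0.16). The kinase genes that start the signal did not pass: Lyn was at 155 ± 13.8 and 158 ± 3.25 CPM and Syk at 162 ± 11.2 and 165 ± 19.3. The most abundant of the list, the phospholipase gene Plcg2 and the phosphatase gene Inpp5d (SHIP1), were at 671 ± 52.7 and 700 ± 40.7 CPM and at 351 ± 23.2 and 337 ± 12.6 CPM.

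In the lipid mediator and cytokine list 1 of 21 fell and 1, Il1rap, rose (5 and 2 with the replicate block). Alox5, the 5-lipoxygenase that starts leukotriene synthesis, fell from 8.29 ± 1.33 to 2.24 ± 1.2 CPM (log2 -1.88, adjusted p = 0.0131, edgeR). It ranged from 1.41 to 2.68 CPM over the libraries with DDX41 vectors, and its call was lost without WT empty library 3 (adjusted p = 0.0541). The chemokine gene Ccl9, at 910 ± 65.6 and 814 ± 21.7 CPM, and the phospholipase A2 gene Pla2g4a, at 294 ± 18.1 and 294 ± 30.0, were the most abundant and did not pass.

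Among transcription factor genes 2 of 25 fell and 1 rose. Gata1 fell from 3.97 ± 1.5 to 1.14 ± 0.289 CPM (log2 -1.80, SE 0.337, adjusted p = 0.00605, edgeR), and was at 0.983 ± 0.22 in Het DDX41, 1.02 ± 0.0987 in Het G173R and 0.563 ± 0.228 in Het R525H. Like Ms4a2, it was highest in WT empty and lowest in Het R525H by mean. The difference of Het R525H from Het empty was -1.05 (adjusted p = 0.71). Gata2 did not pass, at 41.2 ± 2.31 CPM in WT empty and 45.6 ± 8.63 in Het empty (adjusted p = 0.813), nor did Mitf, at 4.9 ± 0.94 and 5.54 ± 0.472 (adjusted p = 0.96). Ikzf2, the zinc finger factor Helios, fell from 65.8 ± 7.83 to 26.1 ± 1.44 CPM (log2 -1.33, adjusted p = 0.00543). Tfec, a relative of MITF, rose from 0.457 ± 0.176 to 2.75 ± 0.752 CPM (log2 2.58, adjusted p = 0.00681). Myb and Ikzf1, the most abundant of the list, were at 627 ± 55.9 and 620 ± 75.3 CPM and at 228 ± 9.31 and 246 ± 7.14. No gene of the 5 lists was called in any of the 6 comparisons between vectors. Gata1, Ikzf2 and Tfec kept their calls under every alternative.

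**Figure D4:**
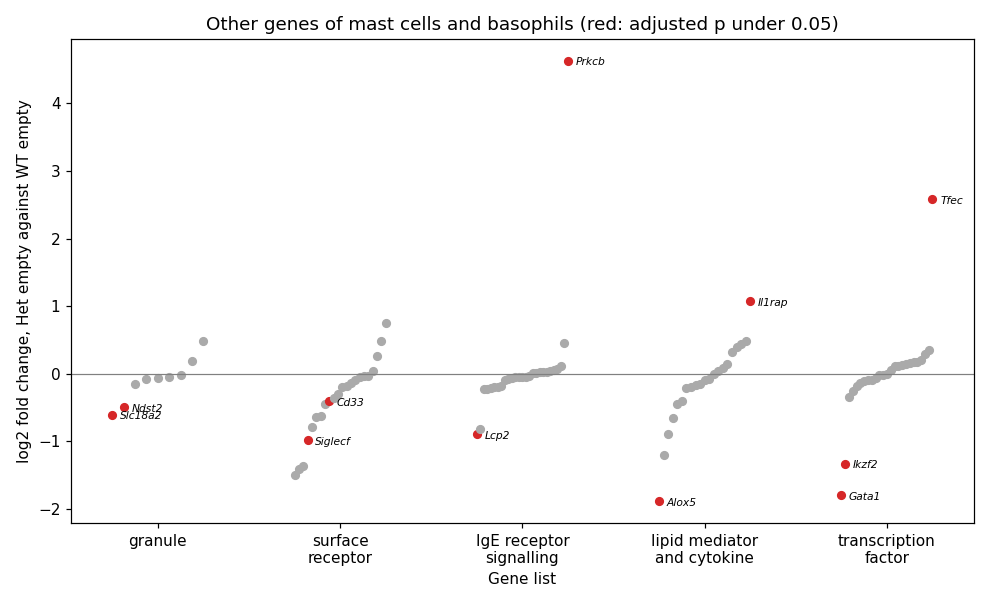
Log2 fold change of Het empty against WT empty (vertical axis) for each tested gene of the 5 lists, red where the adjusted p was under 0.05, with 1 signalling gene not drawn. Prkcb, Tfec and Il1rap rose and 8 of the genes drawn fell, among them Gata1, Ikzf2, Alox5 and Siglecf, while most genes lay near 0.

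Markers of other cell types moved with the same comparison. The summed level of the eosinophil list was 101 to 111 CPM in WT empty and 51.3 to 56.3 in Het empty, nearly all of it Siglecf, and Ear1, Ear2 and Ear6 were at 0 everywhere. The monocyte list summed to 502 to 603 CPM in WT empty and 280 to 294 in Het empty, with 3 of 10 genes up and 3 down, among them Ccr2, from 203 ± 24.1 to 83.7 ± 13.6 CPM (adjusted p = 0.00392, edgeR), and Lyz2, from 3.01 ± 0.433 to 13 ± 1.39 (adjusted p = 1.1e-06). The neutrophil list summed to 1190 to 1740 CPM and 1300 to 2600, and 2 of 14 tested genes rose and 1 fell (6 and 1 with the replicate block). The erythroid list summed to 4160 to 4700 CPM in WT empty and 3730 to 4170 in Het empty, and only Gata1 of its 8 tested genes was called. The megakaryocyte list (0 of 8 called, 123 to 136 CPM and 110 to 129) and the lymphoid list (2 of 7 fell, 117 to 126 and 92.9 to 106) were lower expressed. With the replicate block, 2 genes of the megakaryocyte list fell, and 1 rose and 3 fell in the lymphoid list. In the progenitor list (3580 to 3870 and 3200 to 3590 CPM) Ptprc rose and Flt3 fell, and the liver and stroma list (44.5 to 62.7 and 14.7 to 22) held 1 gene that fell, Trf, with Alb at 0 (1 rose and 2 fell with the replicate block). The part of other cell types in the differences of the mast cell and basophil genes was not tested.

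The genes next to the members mostly did not pass the test. Many of them, among them all those next to Fcer1a, were under the filter and were not tested. Of the protein-coding neighbours (2 on each side) that were tested, only Gyg, next to Cpa3, was called, from 131 ± 10.2 to 96.4 ± 5.76 CPM (log2 -0.44, adjusted p = 0.00187, edgeR). Ms4a3, next to Ms4a2, stood at 65.6 ± 23.6 CPM in WT empty and 154 ± 49.2 in Het empty (adjusted p = 0.257). The interleukin 1 receptor family genes around Il1rl1 did not pass, though Il1r1, Il18r1 and Il1rl2 were lower by mean in Het empty. Il1r1 was at 14.4 ± 4.02 and 8.51 ± 1.16 CPM (log2 -0.76, adjusted p = 0.261). Il18r1 was at 1.95 ± 0.989 and 1.14 ± 0.341 (log2 -0.78, adjusted p = 0.717). Il1rl2 was at 1.47 ± 0.796 and 1.02 ± 0.22 (log2 -0.53, adjusted p = 0.759), and Il18rap at 230 ± 41.8 and 226 ± 44.8. Ctsg, next to Mcpt8, was at 238 ± 36.2 and 333 ± 86.8 CPM (adjusted p = 0.779).

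Over the 12 heterozygous libraries, other genes were ranked by correlation with the average of the 7 scaled log2 levels of the members. The histone gene H2bc21 had the highest Pearson r (0.926), followed by Khk (0.9), which encodes ketohexokinase, Tfap2a (0.883), Sft2d3 (0.851) and Ctxn1 (0.847). After group means were taken away, r was 0.882, 0.776, 0.566, 0.501 and 0.603. Without the 2 libraries farthest from the median of the average, r was 0.84, 0.847, 0.797, 0.669 and 0.722. Tfap2a was low, with a mean of 0.391 CPM over all libraries. These are descriptions over libraries that share their numbers and differ in depth, with no test. Het R525H library 3 had the lowest total, 22104066 expected counts, and also the lowest average (-0.743). The members themselves did not share 1 pattern: r with the average was -0.38 for Hdc and 0.067 for Mcpt8, against 0.427 to 0.657 for the other 5. Each gene is 1 of the 7 in that average, which raises its own r, so the values of these 5 do not show a shared pattern.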

How the data were processed

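The 15 libraries were grouped by sample title. The members and gene lists were chosen with earlier results of these data known. Per the labels' protocols, stranded libraries were prepared from total RNA depleted of ribosomal RNA. The authors deposited 1 RSEM table per library, per the submitters' processing notes; for its version, the aligner and the build: not given in the sources used here. The tables, per the file headers, hold expected counts (estimated counts per gene, not normalized) and TPM, a length-corrected level computed by the authors; FPKM was not used. All 120 member values were whole numbers, so no read shared with another gene entered them as a fraction.

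Expected counts were rounded for edgeR 4.0.16 (R 4.3.3): filterByExpr by group (14548 genes), TMM scaling (factors 0.969 to 1.057), 1 quasi-likelihood model with group over all libraries, and Benjamini-Hochberg adjustment over all genes tested, with a call at an adjusted p under 0.05. CPM are on TMM-scaled totals, except the summed levels of the cell type lists and the limit for Fcer1a, which are on unscaled totals. Each SE divides the absolute log2 difference by the root of its F statistic. Fcer1a did not pass the filter. The script was tested on simulated data. Precision is limited by 3 libraries per group, and for Cma1 by counts.

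Named genes were, by rule, the members, Ddx41, and up to 4 called genes and the 2 most abundant genes of each of 5 lists. The 5 genes most like the average of the members were also named by rule. Other genes named (such as Fcer1g, Lyn, Syk, Gata2, Mitf, the neighbours and marker genes of other cell types) were added after their values were seen. The values of 1 called gene of the signalling list are not reported here. Library numbers come from the titles. Same-numbered libraries correlated above 0.1 in every pair for Het empty against WT empty (0.358 to 0.49) and for 4 of the comparisons between vectors, and not for the other 2. Alternatives were RLE scaling, no filter, DESeq2 1.42.0, libraries 1 and 2 alone, each library left out in turn and the replicate block. Promoters are from RefSeq on GRCm38.p6, and neighbours from GENCODE M21.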

Additional observations from a re-analysis of the deposited data

Results flagged for a closer look

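In WT empty library 3 was the lowest of its group for Il1rl1, and it was the highest in 4 of 4 heterozygous groups. The log2 shift of library 3 against libraries 1 and 2 in WT empty minus that in the heterozygous groups was -1.551 (SE 0.263). Cpa3 had the same placement of library 3, with a difference of shifts of -1.06 (SE 0.206). These 2 genes are listed because a fit of this difference called them. Its p-values are not given or read as a test, since the placement had been seen in these data. The wild-type shift also rests on 1 library, which was the lowest of its group for 6 of the 7 measured genes.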

How the results depend on the processing

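Of the 7 measured members, 5 lay below WT empty without overlap in each heterozygous group (6 in Het DDX41 without WT empty library 1 or without Het DDX41 library 1), and 0 were called between vectors, under RLE scaling, without a filter, with DESeq2, with libraries 1 and 2 alone, with each library left out and, for the tested comparisons, with the replicate block. Leaving out libraries cannot make separate groups overlap, apart from small changes in scaling. The count without overlap could thus only stay or rise in those settings, and nothing is read from its staying. For Het empty against WT empty the log2 difference ranged from -3.01 to -2.37 for Ms4a2, -2.50 to -1.84 for Il1rl1, -1.80 to -1.35 for Cpa3, -2.90 to -2.52 for Cma1 and -2.16 to -1.58 for Prss34. Cma1 in Het R525H against Het empty ranged from -1.77 to -1.13 (adjusted p 0.237 to 1.0). The number of members called between library 3 and libraries 1 and 2, 4, ranged from 2 to 5 when 1 library was left out. With the replicate block, the smallest adjusted p of a member between vectors was 0.135 (Hdc, Het R525H against Het G173R), and the block changed no call on a member. Among the single-gene values recomputed here (the members in each comparison, and the list genes called in Het empty against WT empty), 33 lost and 2 gained a call under an alternative and none changed direction while called. Genes of the lists not called at first were counted only with the replicate block, which took the 5 lists from 3 that rose and 9 that fell to 4 and 21. Genes under about 3 counts per library, Fcer1a and in part Cma1, are limited by depth.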
